A study of Mus musculus with 15 samples.

Results

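H3K4me3, the trimethyl mark on lysine 4 of histone H3 that marks gene starts, appeared in the peak lists of CLPP-KO cells and of WT + 2HG cells, and not in that of WT cells, at 1243 promoters of protein-coding genes. These coding promoters were chosen by the measured peak calls themselves. Merging peaks that overlapped between the WT, WT + 2HG and CLPP-KO lists gave 15110 regions on chromosomes 1 to 19, of which 1685 (11.2%) held a CLPP-KO and a WT + 2HG peak but no WT peak. Of the 12913 regions that overlapped a window of 2000 bp either side of a protein-coding transcript start, 1243 (9.63%) had that pattern. They touched 1307 of the 20445 coding genes on these chromosomes (6.39%). The absence of a WT peak and the presence of the other peaks define the regions, so none of these counts is a test.

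The study asked how H3K4me3 in cells that lack CLPP, a protease of the mitochondrial matrix, compares with that in wild-type cells given 2HG. ChIP–seq covered 12 samples in 3 conditions (WT, WT + 2HG and CLPP-KO, with 4 samples per condition) and 3 inputs. All were mBA cells of mouse brown adipose tissue, called primary in the sample labels and immortalized with SV40 large T antigen and then differentiated in the methods of the study, and all grew in high-glucose DMEM with no pyruvate. WT cells were untreated, WT + 2HG cells were wild type and received a cell-permeable 2-hydroxyglutarate dissolved in DMSO, and CLPP-KO cells were untreated but had uridine added to their medium. The effect of uridine therefore cannot be told apart from that of the knockout, and the labels give no DMSO control. Peaks had been called on the 4 samples of a condition together. With 1 list per condition there is no replicate spread, and no difference between conditions could be tested. The WT list was the shortest (12342 peaks, against 14059 in WT + 2HG and 15118 in CLPP-KO).

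H3K4me3 is laid down by SET1 and MLL methyltransferase complexes, which are guided to unmethylated CpG islands by proteins that bind CpG dinucleotides. JmjC demethylases of the KDM5 family remove it and need α-ketoglutarate, with which 2HG competes. Promoters of developmental regulators are usually CpG rich, and in cells that do not express the gene they often carry little H3K4me3 or carry it together with repressive marks. Repressive marks were not measured here.

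The cell type was checked by promoter peaks at marker genes. Among 11 brown adipocyte markers, 3 had a WT peak (Prdm16, Pparg and Cebpa), 5 had a WT + 2HG peak and 6 a CLPP-KO peak. Ucp1, Dio2, Ppargc1a, Adipoq and Fabp4 had none in any list, so the thermogenic and mature adipocyte genes among the markers were largely unmarked. Cidea and Plin1, which act at the lipid droplet, were among the promoters gained in both. Pdgfra and Dlk1 of 4 preadipocyte or fibroblast markers had peaks in every list, the 2 macrophage and 2 endothelial markers had none, and of 3 muscle markers Myod1 had a peak, in CLPP-KO only, while Myog and Myf5 had none. Ebf2 of the brown adipocyte and Thy1 of the preadipocyte markers were also seen in CLPP-KO only. The part of these differences in the results was not tested.

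The sequences just upstream of a coding start are shown for 6 of the 12 strongest promoters, each with 150 exon-free bases there (GRCm39, read 5′ to 3′ on the gene's strand, CpG dinucleotides in capitals). They are given because CpG density was not used to choose the promoters and is compared below. Kcnc4 (chr3:107367782-107367931, minus strand) encodes a voltage-gated potassium channel. Gpr25 (chr1:136188612-136188761, minus strand) encodes an orphan G protein-coupled receptor. Sp9 (chr2:73102119-73102268, plus strand) encodes a zinc finger factor of limb and forebrain development. Adamts15 (chr9:30832247-30832396, minus strand) encodes a secreted matrix protease. Vwa2 (chr19:56862531-56862680, plus strand) encodes an extracellular matrix protein. Zfp804a (chr2:81883416-81883565, plus strand) encodes a zinc finger protein.
Kcnc4: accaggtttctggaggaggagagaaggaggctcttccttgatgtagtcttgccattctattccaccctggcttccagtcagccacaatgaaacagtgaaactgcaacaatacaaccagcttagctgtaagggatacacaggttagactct
Gpr25: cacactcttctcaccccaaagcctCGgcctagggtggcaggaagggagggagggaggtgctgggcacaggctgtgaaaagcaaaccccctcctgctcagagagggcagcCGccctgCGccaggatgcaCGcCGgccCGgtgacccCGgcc
Sp9: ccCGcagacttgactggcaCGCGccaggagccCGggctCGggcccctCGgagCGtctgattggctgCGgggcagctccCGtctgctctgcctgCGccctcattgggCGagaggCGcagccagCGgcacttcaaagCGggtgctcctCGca
Adamts15: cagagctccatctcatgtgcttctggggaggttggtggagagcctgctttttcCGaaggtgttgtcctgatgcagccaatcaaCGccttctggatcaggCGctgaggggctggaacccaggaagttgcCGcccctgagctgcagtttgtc
Vwa2: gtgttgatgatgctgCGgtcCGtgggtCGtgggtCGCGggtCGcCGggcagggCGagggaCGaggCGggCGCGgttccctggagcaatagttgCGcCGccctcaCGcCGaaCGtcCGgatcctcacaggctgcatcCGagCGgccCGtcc
Zfp804a: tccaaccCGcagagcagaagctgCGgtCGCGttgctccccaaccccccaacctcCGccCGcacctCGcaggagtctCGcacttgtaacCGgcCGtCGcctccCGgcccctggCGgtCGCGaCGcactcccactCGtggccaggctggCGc

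Within the 150 bases, Vwa2 had 21 CpG and a GC content of 71.3%, Zfp804a 18 and 72%, and both stretches lay wholly inside the CLPP-KO and the WT + 2HG peak. The 7 CpG of Gpr25 also lay inside the CLPP-KO peak, with 137 of the bases inside the WT + 2HG peak. Sp9 had 15 CpG, but neither peak reached them. The stretches of Kcnc4 (0 CpG, 76 bases inside the CLPP-KO peak) and Adamts15 (4 CpG, outside both peaks) sat at or beyond the edge of the marked region. The Kcnc4 stretch is at another coding start than the one nearest its CLPP-KO summit. At that summit the GC content was 73% and CpG observed/expected 0.93.

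The gained peaks were weak within their own lists. Area is the authors' measure of a peak's size (the area under the curve of summed significance). It was not scaled between lists, so each peak was placed by its area percentile, the percent of peaks in its own list with an area no larger. The median percentile of the 1243 regions was 22.1 in the CLPP-KO list (10th to 90th percentile of regions, 7.19 to 42.0) and 16.2 in the WT + 2HG list (5.15 to 30.8). Coding promoters marked in all 3 lists had medians of 65.0 and 62.4. Those seen in CLPP-KO only had a median of 10.6 and those seen in WT + 2HG only 5.84. The regions gained in both stood above these, but the rule asks for a peak in both lists and so favours larger peaks. That order is thus partly built in. An area under the median of all peaks was found for 1184 of the 1243 in the CLPP-KO list and for 1238 in the WT + 2HG list. The regions were placed higher in the CLPP-KO list in 853 cases (68.6%, 95% Wilson interval 66.0 to 71.1, which covers counting error only), with a median difference of 5.18 percentile points. Over the regions, which share the 2 lists, the percentiles had a Pearson r of 0.49 and a Spearman rho of 0.48, given as a description.

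**Figure D1:**
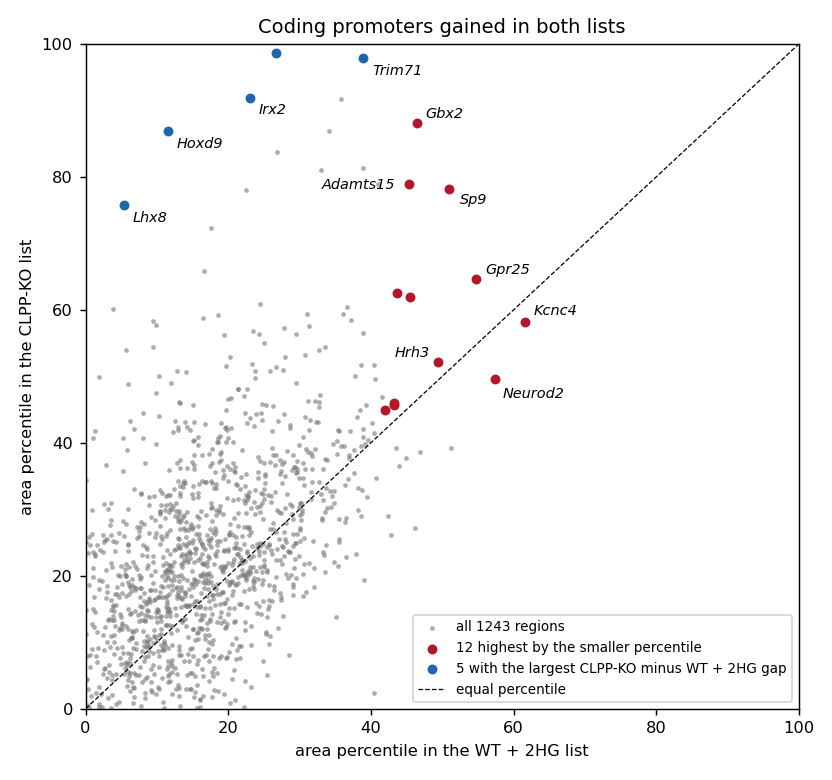
Area percentile of each of the 1243 coding promoters in the WT + 2HG list (x axis, percent) and in the CLPP-KO list (y axis, percent), with the dashed line at equal percentiles. Red points are the 12 regions with the highest smaller percentile and blue points the 5 with the largest CLPP-KO minus WT + 2HG difference, not all of them named. Most points lie below 50 on both axes, 3 lie at or above 50 on both, and 24 lie over 40 points above the line while none lies as far below it.

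The region at Kcnc4 (chr3:107365495-107367857) stood highest by the smaller of its percentiles, with 58.1 in CLPP-KO and 61.6 in WT + 2HG. Its areas were 7127 and 6842, its summit had a −log10 p of 11.7 and 11.3, and the nearest WT peak was 57.0 kb away. Gpr25 (chr1:136187351-136188777) had percentiles of 64.6 and 54.8. Sp9 (chr2:73102999-73105179) had 78.1 and 51.0. Only these 3 regions were above the median area of both lists. Neurod2 (chr11:98217712-98219798), a neuronal basic helix-loop-helix factor, had 49.5 and 57.5. Hrh3 (chr2:179745106-179746642), the histamine H3 receptor, had 52.1 and 49.5. Gbx2 (chr1:89857737-89859527), a homeobox factor of the hindbrain boundary, had 88.1 in CLPP-KO and 46.4 in WT + 2HG. The next regions were at Pip5k1b, a lipid kinase (62.0 and 45.5), Adamts15 (79.0 and 45.3) and Myo5b, a motor protein of vesicle traffic (62.5 and 43.7). Vwa2, Dipk1c and Zfp804a followed, with smaller percentiles of 43.3, 43.2 and 42.0. Of these 12 genes none had a promoter peak in WT at any coding start, and the nearest WT peak lay between 9.42 kb away at Neurod2 and 1413 kb away at Zfp804a. CpG observed/expected at the CLPP-KO summit, in a window of 500 bp, ran from 0.80 at Neurod2 to 1.06 at Gbx2, with 0.93 at Kcnc4, 0.95 at Sp9 and 0.87 at Adamts15.

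Peak width followed the same order as area, which itself sums over the width of a peak. The median CLPP-KO peak of the 1243 regions was 591 bp wide and the median WT + 2HG peak 539 bp, against 1022 bp in both lists for coding promoters in all 3. Coding promoters in CLPP-KO only had a median of 446 bp and those in WT + 2HG only 382 bp. The CLPP-KO peak was the wider in 755 of 1243 regions. The summits of the CLPP-KO and the WT + 2HG peak lay a median of 71 bp apart, close to the 66 bp at promoters in all 3 lists. They lay within 500 bp of each other in 1214 of 1243 regions. Regions were formed from overlapping peaks, which keeps their summits close, so these distances are no test of agreement between the conditions.

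The regions were ranked by the smaller percentile and divided into 4 groups of nearly equal size, as a description. In the strongest 311 the CLPP-KO peaks had a median width of 818 bp and the summits a median CpG observed/expected of 0.80, while in the weakest 310 these were 465 bp and 0.68. A coding start lay inside 77.2% of the strongest group and 56.1% of the weakest. No gene of the region had a WT promoter peak in 80.4% of the strongest group and in 66.8% of the weakest. A WT peak lay within 2000 bp of 9.32% of the strongest group and 24.8% of the weakest. The weaker regions were thus poorer in CpG and more often beside a WT peak. They were also narrower, but area sums over width, so the ranking by area builds this in. The part of width in the share with a start inside was not tested.

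The summits sat where H3K4me3 is usually found. The CLPP-KO summit was within 500 bp of a coding start in 989 of 1243 regions (79.6%, 77.2 to 81.7) and the WT + 2HG summit in 982 (79.0%). At promoters in all 3 lists the CLPP-KO summit was that close in 86.2%. It was that close in 64.6% of promoters in CLPP-KO only, and the WT + 2HG summit in 68.6% of those in WT + 2HG only. The median position was 144 bp downstream of the nearest coding start for CLPP-KO and 131 bp for WT + 2HG, against 199 and 196 bp at promoters in all 3 lists. A coding start lay inside the region in 821 of 1243 (66.0%, 63.4 to 68.6) against 90.4% at promoters in all 3 lists. The gained regions were also narrower (median 684 bp against 1154 bp), which leaves less room for a start. The part of width in that difference was not tested. Only 26 regions held coding starts of both strands, 262 held the start of a transcript of a noncoding gene, and 111 touched more than 1 coding gene.

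**Figure D2:**
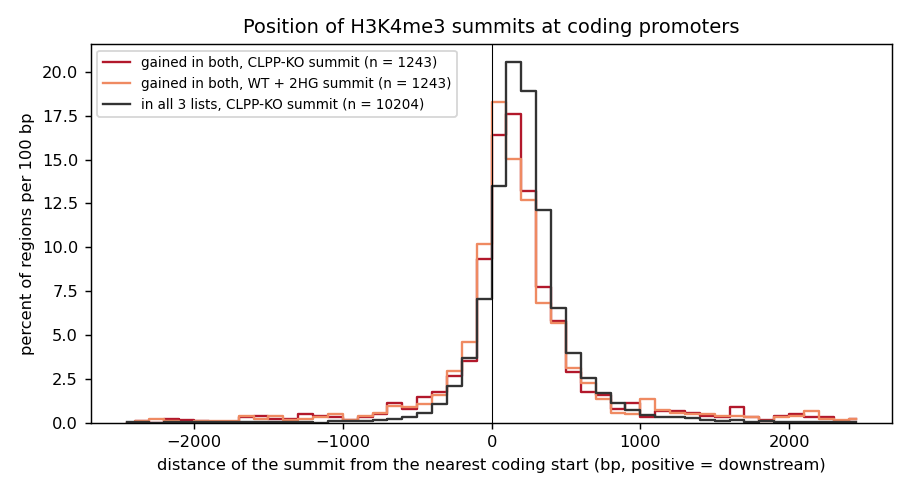
Distance of the peak summit from the nearest coding start (x axis, bp, positive downstream) as the percent of regions in bins of 100 bp (y axis), for the CLPP-KO and the WT + 2HG summits of the 1243 gained promoters and for the CLPP-KO summits of the 10204 coding promoters in all 3 lists. All curves peak just downstream of the start, where the medians are 144, 131 and 199 bp, and the gained promoters have more summits far upstream (10th percentile at -260 bp for CLPP-KO, against -75 bp).

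The absence of a WT peak at a region did not always mean an unmarked gene. The distance to the nearest WT peak had a median of 31.1 kb, and 946 of 1243 regions (76.1%, 73.7 to 78.4) had no WT peak within 5000 bp. A separate group of 226 regions (18.2%, 16.1 to 20.4) had one within 2000 bp, at a median distance of 365 bp. In that group the median percentile was 15.8 in CLPP-KO and 13.5 in WT + 2HG, against 23.7 and 16.9 in the other 1017. Their CLPP-KO summits were within 500 bp of a coding start in 61.1% against 83.7%, and downstream of it in 53.5% against 80.1%. The 3 regions nearest to a WT peak were at Egr1, an immediate early zinc finger factor (17 bp), Ddx17, an RNA helicase (89 bp), and Epb41l4b, a cytoskeletal adaptor (108 bp).

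**Figure D3:**
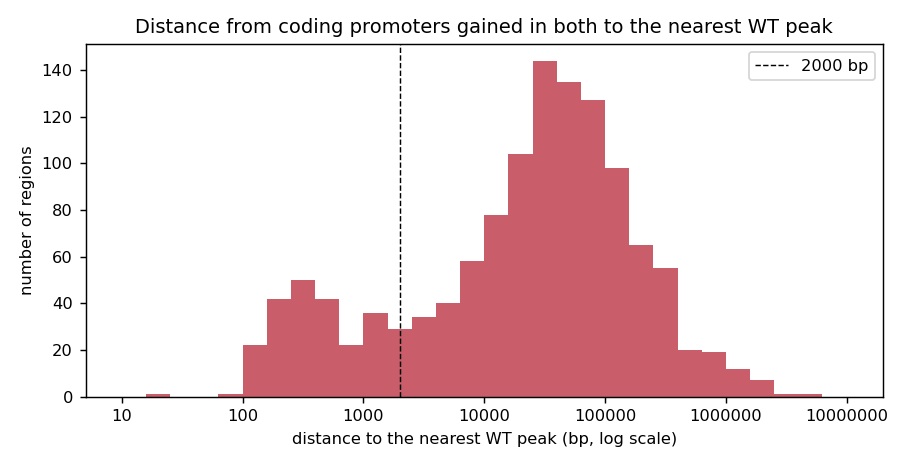
Number of the 1243 coding promoters (y axis) by the distance to the nearest WT peak (x axis, bp, log scale), with the dashed line at 2000 bp. The distances form a main group with a median of 31.1 kb over all regions and a smaller group of 226 regions to the left of the line.

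Seen by gene, 932 of the 1307 genes (71.3%, 68.8 to 73.7) had no WT promoter peak at any of their coding starts, and 375 had one elsewhere. Of all 9640 coding genes with no WT promoter peak, those 932 were 9.67%. Examples with a WT promoter peak in another region were Wnt5a, Ntn1 and Tal1, given with the distance to the nearest WT peak of any kind. Wnt5a, a noncanonical Wnt ligand, had percentiles of 35.5 in CLPP-KO and 37.7 in WT + 2HG and a distance of 3.99 kb. Ntn1, the axon guidance ligand netrin, had 56.8 and 23.5 and a distance of 12.0 kb. Tal1, a haematopoietic helix-loop-helix factor, had 37.7 and 36.9 and a distance of 5.81 kb. Srebf1, the sterol and fatty acid synthesis regulator, also had a WT promoter peak. Its gained region (chr11:60113272-60113830) had percentiles of 12.8 and 19.9 and lay 1.82 kb from a WT peak, with its CLPP-KO summit at -2152 bp from the nearest coding start.

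CpG content placed the gained promoters between the promoters marked in all lists and the unmarked ones. The median CpG observed/expected at the summit was 0.74 (quartiles 0.62 and 0.85) for the 1243 regions, 0.82 for the 10204 in all 3 lists, 0.66 for the 853 seen in CLPP-KO only and 0.54 for the 369 seen in WT + 2HG only. Coding genes with no promoter peak in any list had a median of 0.20 at their canonical start, which is another window than a summit. At canonical starts the median was 0.67 for gained genes with no WT promoter peak and 0.77 for those with one elsewhere. It was 0.80 for genes with a WT promoter peak and no gained region. The median GC content at the summit was 64.8% in the gained promoters and 67.6% in those in all 3 lists. These are differences between sets of regions, which are not replicates, and no test was made.

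**Figure D4:**
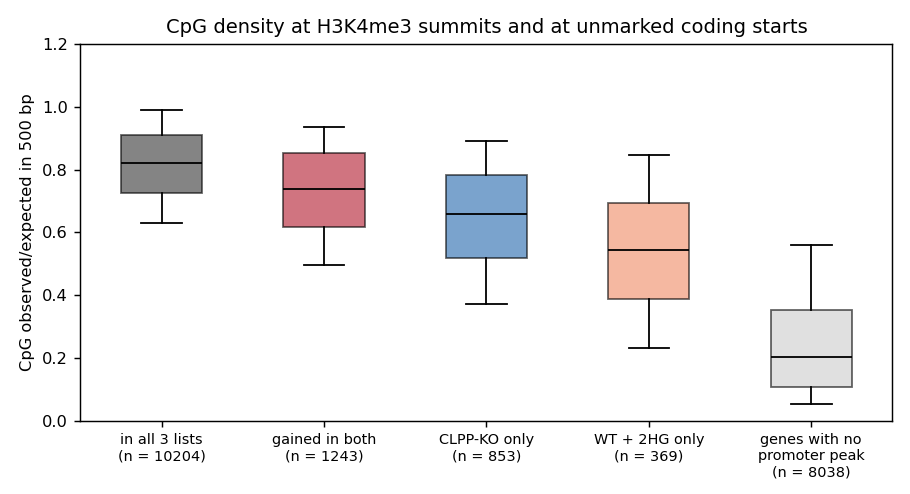
CpG observed/expected in 500 bp (y axis) at the strongest available summit (CLPP-KO where present) of coding-promoter regions by peak pattern, and at the canonical start of the 8038 coding genes with no promoter peak. Boxes span the quartiles with the median as a line and whiskers run from the 10th to the 90th percentile, and the medians fall from 0.82 through 0.74, 0.66 and 0.54 to 0.20.

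Canonical starts were also put into classes, high (observed/expected of at least 0.75 with GC of at least 55%), low (under 0.48) and intermediate. Among the 6833 high-CpG coding genes 91.3% had a WT promoter peak, which left 596 without, and 267 of these (44.8%, 40.9 to 48.8) had a region gained in both. Of the 1694 intermediate genes with no WT peak 443 did (26.2%, 24.1 to 28.3). Of the 7350 low-CpG genes with no WT peak 222 did (3.02%, 2.65 to 3.44). A large part of the few genes with a CpG-rich canonical start and no WT peak therefore had a gained region, against a small part of the many CpG-poor ones. The gained region can lie at another coding start of the gene. A WT promoter peak was itself present at 67.7% of the intermediate and 12.1% of the low-CpG genes.

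Short sequence motifs were counted in the 250 bases before and 50 after the canonical start (both strands searched). Except for CCAAT, their shares in the gained genes lay between those of the WT-marked and the unmarked genes. GGGCGG, the core of the GC box bound by Sp factors, was present at 52.8% of the 932 gained genes with no WT peak, 63.0% of genes with a WT peak and no gained region, 15.3% of genes with no peak in any list and 43.3% of all coding genes. TATAAA was present at 8.91%, 7.25%, 22.1% and 13.3% of these sets in the same order. CCAAT hardly varied (36.5%, 38.8%, 40.9% and 39.5%). TGATGCAA, the amino acid response element bound by ATF4 and CHOP dimers, was found at 8 of the 932 genes (0.858%). In the other sets in that order it was found at 0.441%, 1.37% and 0.856%. TGACGTCA, the full cAMP response element, was found at 2.15%, 3.51%, 1.03% and 2.43%. A match is a description of the letters and says nothing about binding.

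Gene groups are described by role, each as the number of its genes with a gained region, beside 6.39% of all coding genes. The lists were drawn up with earlier results of these data known, and no set test was made. Transcription factors are given first. Of 39 Hox cluster factors, which pattern the body axis, 16 (41.0%) had one, 11 of them with no WT promoter peak and 5 with one at another place, and 16 more had a WT peak and no gained region. The strongest were Hoxb2 (81.3 in CLPP-KO and 38.9 in WT + 2HG) and Hoxa10 (86.9 and 34.1). Hoxa13 (34.7 and 29.9) and Hoxb4 (45.7 and 25.4) lay 230 and 277 bp from a WT peak. Only 4 of the 16 Hox genes had a coding start inside the gained region, so most were counted through a region beside their start. Counting only genes with a start inside the region, other homeobox and paired-box factors held 29 of 167 and so a larger share than the 4 of 39 Hox factors. Counted the same way, all coding genes held 840 of 20445, down from 1307.

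Among 167 other homeobox and paired-box factors 53 (31.7%) had a gained region. Gbx2 was strongest, followed by Alx4, a craniofacial and limb factor (51.8 and 40.4), Isl2, a motor neuron factor (37.8 and 45.0), and Lbx1, a factor of migrating muscle precursors (91.7 and 35.8). Forkhead factors held 8 of 42 (19.05%), among them Foxa1, a pioneer factor of endoderm (55 and 25.03). Sox, Gata and T-box factors held 9 of 38 (23.7%), with Tbx21, the T-bet factor of T cells, at 56.6 and 38.9 and Sox18, a vascular factor, at 51.9 and 23.3. Lineage basic helix-loop-helix factors held 12 of 63 (19.05%), with Neurod2, Tal1, Sim1 of the hypothalamus (81.0 and 33.0) and Hand2 of the heart and limb (53.9 and 32.8). Nuclear receptors held 6 of 47 (12.8%), with a median smaller percentile of 5.40 against 14.3 over all gained genes, and with Nr5a1 at 22.0 and 6.66 and Esrrg at 40.8 and 5.22. Zinc finger factors of the Zfp, Zscan, Zkscan and Zbtb series held 26 of 476 (5.46%), below the share of all coding genes.

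Among signalling genes, Wnt ligands, receptors and secreted inhibitors held 9 of 44 (20.5%), including Wnt3 (31.0 and 12.7) and Wnt7a (26.0 and 11.2). FGF, BMP, GDF and TGF-beta family ligands held 10 of 55 (18.2%), with Bmp3, a BMP antagonist, at 48.9 and 29.5 and Gdf10 at 26.6 and 26.7. Guidance genes held 12 of 68 (17.6%), among them the receptors Unc5d (24.8 and 24.1) and Robo2 (22.1 and 34.8). G protein-coupled receptors for transmitters and peptides held 24 of 195 (12.3%). All 24 receptor genes lacked a WT promoter peak, and beside Gpr25 and Hrh3 they included Vipr1, a receptor of vasoactive intestinal peptide (58.5 and 37.2), and Oprd1, the delta opioid receptor (39.6 and 29.9). Cytokine, chemokine and interferon genes held 5 of 157 (3.18%), with Irf8 at 29.0 and 12.6.

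In the membrane and matrix lists, ion channels held 41 of 228 genes (17.98%), 35 of them with no WT peak. Beside Kcnc4 these included the potassium channel genes Kcnq3 (32.9 and 38.8) and Kcns3 (45.4 and 32.7) and the nicotinic receptor subunit Chrna5 (36.1 and 31.7). Collagens, laminins and matrix proteases held 18 of 107 (16.8%). Adamts15 and Adamts8 (60.4 and 36.7), neighbouring protease genes on chromosome 9, led them, and Col18a1 (40.2 and 35.3) and Col16a1 (43.1 and 32.5) followed. Solute carriers held 33 of 374 (8.82%), with Slc16a3, the lactate exporter MCT4, at 38.3 and 35.3. Cadherins and protocadherins held 9 of 112 (8.04%), with Celsr1, a planar polarity cadherin, at 41.5 and 40.5.

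Among 43 brown adipocyte and adipogenic genes 11 (25.6%) had a gained region, 7 of them with no WT promoter peak. Lpl (chr8:69333192-69334279), the lipoprotein lipase that frees fatty acids from circulating triglyceride, had 47.2 in CLPP-KO and 32.8 in WT + 2HG and was 85.8 kb from a WT peak. Angptl4, an inhibitor of that lipase, had 23.3 and 37.9. Cidea, which enlarges lipid droplets and is a brown fat marker, had 33.6 and 21.3. Plin1, the perilipin that coats lipid droplets, had 33.8 and 21.0, with its CLPP-KO summit 1666 bp downstream of the start. Kcnk3, a potassium channel gene expressed in brown fat, had 29.0 and 15.7, Otop1, a proton channel gene, 24.1 and 8.56, and Lhx8, a homeobox factor listed with brown fat markers, 75.7 and 5.40. The other 4 (Hilpda, Tbx15, Zfp423 and Zfp516) had a WT promoter peak as well. The nearest WT peak of any kind lay 119 to 12587 bp from their gained regions. A coding start lay inside the gained region for 4 of the 11, and so for 4 of the 43 listed genes, beside 840 of all 20445 coding genes.

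Lipid and cholesterol synthesis genes held 10 of 64 (15.6%). Acacb, the acetyl-CoA carboxylase that makes the malonyl-CoA regulating fatty acid oxidation, had 32.8 and 34.8 and a WT peak 2.59 kb away. Elovl2, an elongase of polyunsaturated fatty acids, had 24.9 and 21.2. Abcg1, a sterol exporter, had 49.1 and 11.9. Scd1, the stearoyl-CoA desaturase, was weak in both lists (4.50 and 8.36). In this list the CLPP-KO percentile was the higher in 4 of 10 regions, against 853 of all 1243.

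Mitochondrial and nuclear housekeeping lists were mostly marked in WT already. Of 182 oxidative phosphorylation and mitochondrial ribosome genes 85.7% had a WT promoter peak and 11 (6.04%) a gained region, among them Mrps23 (32.9 and 23.8) and Uqcr10 (20.1 and 16.98). H3K4 methyltransferase, JmjC and TET genes held 3 of 46 (6.52%), namely Hif1an, an asparagine hydroxylase of the HIF pathway (22.4 and 21.9), Prdm9, a meiotic H3K4 methyltransferase (8.98 and 17.2), and Kmt2b, a general one (3.98 and 6.57). DNA repair genes held 5 of 81 (6.17%), with Ddb2, a sensor of ultraviolet damage, at 26.1 and 42.9. Replication-dependent histone genes, of which 29.4% were marked in WT, held 2 of 68, both through 1 region between H2bc3 and H3c3. Counted only over genes with no WT promoter peak, these lists in the same order held 6 of 26, 2 of 4, 3 of 11 and 0 of 48. The share over all such coding genes was 9.67%, and these sets are small.

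Lists for other cell types differed widely. Germline and meiosis genes held 8 of 65 (12.3%), none of them with a WT promoter peak and all with a coding start inside the region, including Trim71, a stem cell regulator, and the piRNA pathway genes Tdrd5 (38.5 and 31.6) and Tdrd6 (27.1 and 23.0). Skeletal muscle genes held 4 of 43 (9.30%), none with a start inside the region, with the muscle progenitor factor Pax3 at 51.6 and 19.7 and the intermediate filament gene Des at 6.63 and 5.83. Over all gained genes a start lay inside the region for 840 of 1307. Olfactory and vomeronasal receptors held 1 of 1472 (0.0679%), Or2i1, and keratins and keratin-associated proteins 0 of 165. The median CpG observed/expected of the canonical starts was 0.095 in the receptor list and 0.18 in the keratin list, against 0.68 in the Hox list and 0.62 over all coding genes. The part of CpG content in the differences between lists was not tested.

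**Figure D5:**
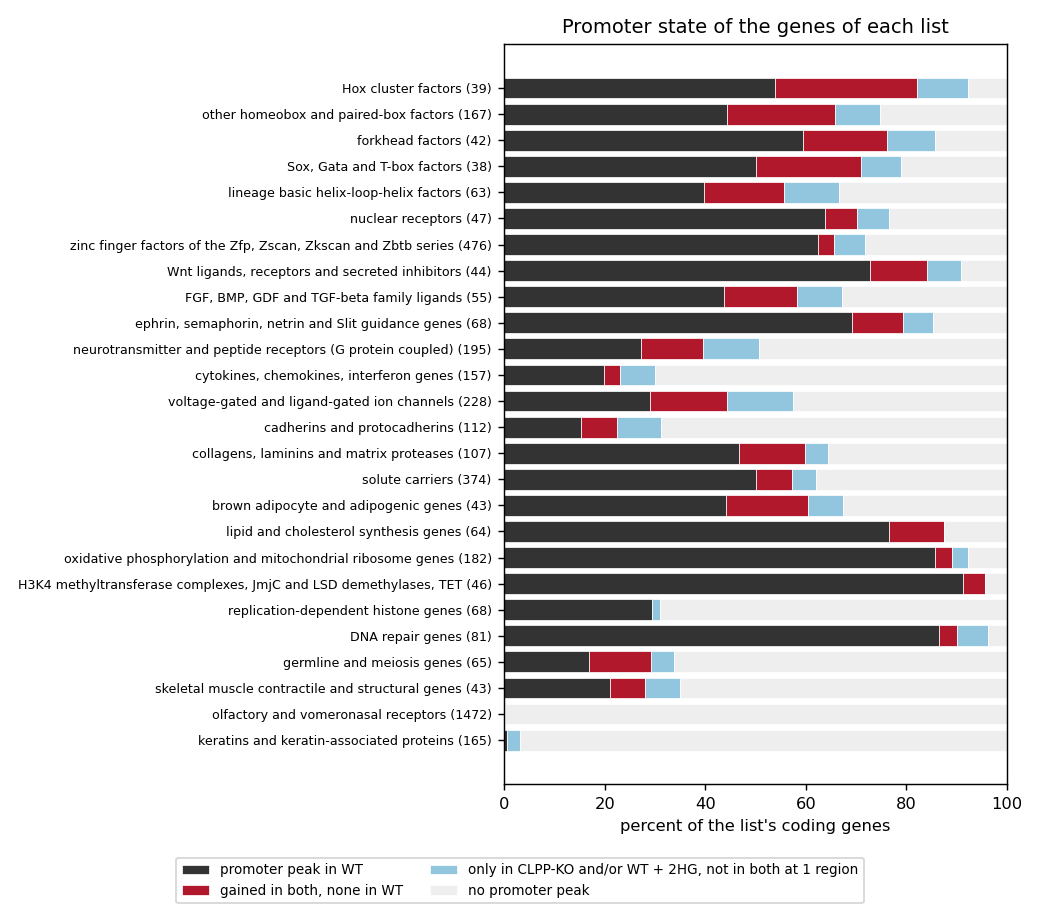
Share of each list's coding genes (x axis, percent, with the number of genes in brackets) that had a WT promoter peak (black, including genes with a gained region besides), that were gained in both without a WT peak (red), that had other peaks of the CLPP-KO or WT + 2HG list only (blue), or that had no promoter peak (grey). The red share is 11 of 39 for Hox factors, 36 of 167 for other homeobox and paired-box factors and 24 of 195 for transmitter and peptide receptors, and 0 of 165 for keratins.

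Among the regions that differed most between the lists, developmental transcription factors were frequent. Large CLPP-KO minus WT + 2HG differences were seen at Hoxd9 (86.8 against 11.6), Lhx8 (75.7 against 5.40), Irx2, a homeobox factor (91.9 against 23.0), and Trim71 (97.8 against 38.9). Differences above 40 points were found at 24 regions, a limit chosen after the values were seen. Of these 24, 14 touched a gene of the transcription factor lists, against 140 of all 1243 (11.3%). All 17 regions of Hox genes were placed higher in the CLPP-KO list, beside 68.6% of all 1243, with a median percentile of 40.9 there and 15.2 in WT + 2HG. The median difference was 20.3 points, beside 5.18 over all regions. This was not particular to Hox genes. All 9 regions of Sox, Gata and T-box genes were also higher in CLPP-KO, as were 10 of 11 of brown adipocyte and adipogenic genes. Their median differences were 17.6 and 13.3 points. Forkhead factors (3.71), the zinc finger series (2.99) and lipid and cholesterol synthesis genes (-2.38) had smaller medians than all regions. These are places within lists of different length and not a measure of unequal signal.

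The largest differences in the other direction were smaller, none of them above 40 points. Atp12a, a proton pump gene, had 40.5 in WT + 2HG and 2.32 in CLPP-KO (chr14:56602067-56602819). Nova1, a neuronal splicing factor, had 22.2 and 0.251 and lay 176 bp from a WT peak. Sgcz, a sarcoglycan, had 35.1 and 13.8, Zbed5, a zinc finger gene, 25.4 and 5.04, and Lsp1, a leukocyte actin-binding protein, 28.5 and 8.12. Lsp1 was the poorest in CpG of these, with 0.35 at its summit, which lay at -1485 bp from the start. The reads behind each peak are not in these lists, and the part of depth in such differences was not tested.

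Several regions of 1 gene were the exception, at 50 of the 1307 genes. Shank2, a synaptic scaffold, had 3, of which 2 lay next to each other and the other lay far downstream at another start. Isl2 had 2 within 1 promoter (30.2 and 23.2, then 37.8 and 45.0), and so did Msx3, a neural tube homeobox gene, and Ache, the acetylcholinesterase gene. In Tal1 the weaker region (5.49 and 5.97) was 477 bp from a WT peak and the stronger one 5.81 kb from it. Dnajc22, a membrane chaperone gene, had 2 regions upstream of its start.

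Gained promoters were spread over all 19 chromosomes, from 5.54% of the coding-promoter regions of chromosome 16 to 11.2% of those of chromosome 15. Runs of 2 or more gained promoters with no other coding-promoter or WT region between them took in 241 of the 1243, in 114 runs. The longest run was of 4 regions over 30.3 kb of the HoxD cluster (chr2:74527973-74558229), at Hoxd9, Hoxd8, Hoxd3 and Hoxd4. At Dlx3 and Dlx4, paired homeobox genes on chromosome 11, 3 regions lay within 25.2 kb.

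The weakest regions show how near the limits of peak calling some members were, since the lists end at an area of 200. The lowest CLPP-KO areas were 201.4 at Extl3, a heparan sulfate glycosyltransferase gene, 202.1 at Slc2a4, the insulin-responsive glucose transporter GLUT4, and 202.3 at Acox3, a peroxisomal oxidase. In WT + 2HG the lowest were 200.3 at Phospho1, 200.7 at Bcl11a and 201.0 at Rims2. Just outside the rule, the weakest WT peaks that kept a coding promoter from being gained had areas of 201.4 at Adam22, 201.5 at the Ube2m and Chmp2a promoter and 201.5 at that of Hacl1 and Btd. At the window's edge, the farthest region inside was 1997 bp from a coding start, at Nkx2-3, and the nearest outside was 2003 bp away.

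The number of gained promoters depended on the length of the lists and on the threshold. Cut to the 12342 largest peaks each, the lists left 615 regions and 658 genes, and a summit p of at most 1e-05 in the treated lists left 702 and 749. Both limits shorten only the CLPP-KO and WT + 2HG lists. The same p limit in all 3 lists, which also removes WT peaks, gave 1393 regions and 1477 genes.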

How the data were processed

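H3K4me3 ChIP–seq of 12 samples and 3 inputs was used as deposited, as 1 narrowPeak list per condition. According to the submitters' processing notes the authors used fastp 0.23.4, BWA 0.7.17, deepTools 3.5.4 and Genrich 0.6.1, with GRCm39. Peaks were called on the 4 replicates together. The deposited signal is the area under the significance curve, and the authors also give the summit −log10 p and the summit offset. The study's reporting summary states 1 general sequencing depth, but the lists hold no read counts, so the depth behind each peak is unknown.

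Coordinates were compared with the GRCm39 reference (0 peaks beyond a chromosome's end). Coding starts came from GENCODE M39. Merging was tested on simulated peaks and against bedtools 2.31.1. Python 3.11.15, numpy 2.4.6 and scipy 1.17.1 were used. Shares have 95% Wilson intervals, and CpG observed/expected was computed in 500 bp around summits. The members, gene lists and tests were chosen with earlier results of these data known. Named genes were the 12 regions with the highest smaller percentile, the 5 largest differences each way, up to 4 genes per list, up to 6 genes with several regions, and the 3 regions nearest each limit. The rest of the adipogenic list, Srebf1, Abcg1, Scd1, the genes of runs, the 24 skewed regions and the narrow peaks were chosen after their values were seen. Chromosomes 1 to 19 were used. Sequences are those of the first 6 strong regions with 150 exon-free bases beside a coding start, leaving out chromosome 18. Some genes that the rule names are not reported here.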

Additional observations from a re-analysis of the deposited data

Results flagged for a closer look

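Chromosome X, which the rule for the gained promoters leaves out, held 74 coding-promoter regions with a CLPP-KO and a WT + 2HG peak and no WT peak. It was flagged as a signal in data outside the comparisons above. These were 20.2% of its 366 coding-promoter regions (95% Wilson interval 16.4 to 24.6, counting error only), against 9.63% on chromosomes 1 to 19 and at most 11.2% on any 1 of them. Regions in all 3 lists made up 63.4% on chromosome X and 79.0% on chromosomes 1 to 19. The strongest by the smaller percentile were the shared promoter of Ptchd1 and Ptchd1as (47.2 in CLPP-KO and 43.0 in WT + 2HG) and that of Lancl3 (57.4 and 40.2). Whether the difference between chromosomes exceeds replicate error was not tested, since each condition has 1 list. The study's reporting summary names chromosome X among those excluded from peak calling, yet the lists hold peaks on it. It also states that the cells were derived from pooled animals of each gender. The part of sex makeup in the difference was not tested.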

How the results depend on the processing

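No paired analysis was possible because each condition has 1 list called on its 4 samples together, and no sample could be left out for the same reason. The 1243 regions fell to 615 (658 genes) with lists of equal length by area and to 702 (749 genes) with a summit p of at most 1e-05 in the treated lists, and rose to 1393 (1477 genes) with that limit in all lists. The 9.63% share of coding promoters became 5.25% and 5.93% under these, 12.1% with that limit in all lists, 8.70% with peaks within 1000 bp joined, 7.33% with no WT peak within 5000 bp, 9.08% with a window of 500 bp and 9.09% with the canonical start per gene. The 71.3% of genes with no other WT promoter peak became 77.7%, 74.9%, 79.1%, 86.7%, 91.3%, 76.8% and 78.8% in the same order, and 74.5% with a window of 1000 bp. Median CpG observed/expected, 0.74, was 0.78 with equal lists, 0.78 and 0.77 with the p limit in the treated and in all lists, 0.75 with no WT peak within 5000 bp and 0.66 in a window of 1000 bp. Of the 338 listed genes 218 had a start inside their region, which took the Hox list from 16 to 4 of 39, under the share of other homeobox factors (29 of 167), and skeletal muscle from 4 to 0. Over all 20445 coding genes the same limit took 1307 to 840. Starts of any transcript of a coding gene were tried after seeing the data. The causes of these changes were not tested beyond the fewer peaks or genes that each limit leaves, and the reads behind each peak are unknown.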

Other observations

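Zinc finger genes of the Zfp, Zscan, Zkscan and Zbtb series stood out among the lists for promoters seen in WT + 2HG only. They numbered 21 of 476, with 9 in CLPP-KO only, while over all coding genes 168 were in WT + 2HG only and 492 in CLPP-KO only. This was chosen after the values were seen, and no test was made.

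The region at Crebzf (chr7:90091183-90091231) was the narrowest of the gained promoters, with a CLPP-KO peak of 49 bp and a WT + 2HG peak of 48 bp. Its summit −log10 p was 36.7 and 61.1, the highest of all 1243 regions in both lists, and the nearest WT peak was 806 bp away. Izumo1, a sperm fusion gene, and Zfp821 also had a peak under 100 bp wide.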
